A study of Mus musculus with 4 samples.

Results

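Apolipoproteins are the protein components of the particles that carry lipid through plasma, and the liver is a main source of them. ApoB forms the scaffold of the very-low-density lipoprotein that hepatocytes secrete, whereas apoA-I and apoA-II make up most of the protein of high-density lipoprotein (HDL). Smaller, exchangeable apolipoproteins move between particles and control the enzymes and receptors that remove triglyceride and cholesterol from the circulation.

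Here, the mRNA levels and the allele use of 10 apolipoprotein genes chosen by name were examined in the liver. Of these, 9 were found among the 8797 genes listed in the expression tables (Apoa1, Apoa2, Apom, Apof, Apoa4, Apoa5, Apoc3, Apob and Apoh), and all 9 were among the 3632 genes that had a B6-allele frequency in every mouse. Apoe, which encodes a receptor ligand of remnant particles, was not analysed here. The livers came from 4 female F1 hybrids at 5 months of age. The cross named MB had an MSM mother and the cross named BM a B6 mother, with the father of the other strain, and 2 mice of each cross were used. No treatment or engineered allele was named for any mouse. B6 and MSM are inbred strains derived from different subspecies of the mouse, so every F1 mouse carried a chromosome set of each strain, and the reciprocal crosses differed in which parent gave which set and in the strain of the mother. Libraries were made from poly(A) RNA with a strand-specific kit. FPKM is the number of fragments of a gene scaled to transcript length and to the size of the library. Levels can be compared between genes only roughly, since the mice also differed by transcript length, as described below. The B6-allele frequency is the share of reads assigned to an allele that came from B6, and 0.5 means equal use of both alleles. The tables carry no counts of reads per gene or allele, and the depth of each mouse is not given, so no counting interval can be given. The labels do not state whether the mice of a cross were littermates, and p-values measure only the spread between these mice.

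The libraries were alike over all genes, with a correlation of log2(FPKM + 1) between mice of 0.961 to 0.978 across genes. Genes are not independent replicates. Of the 7 hepatocyte markers, 5 were listed, among them Ttr at 2539 to 4526 FPKM. Cyp2e1 was listed at 0 FPKM in both MB mice and at 4876 and 6541 FPKM in the others, although its B6-allele frequency of 0.516 to 0.546 was given in all 4 mice. Mup9 was likewise listed at 0 in both MB mice and at 15147 and 13995 FPKM in BM mice. The tables also differed by transcript length. For 740 genes with transcripts under 1000 bases, the median deviation of log2(FPKM + 1) from the mean of the 4 mice was 0.30 in MB replicate 1 and -0.21 in BM replicate 1. The same medians were -0.12 and 0.06 for 2418 genes with transcripts of 4000 bases or more. Several apolipoprotein transcripts are short (Apoc3, 631 bases; Apom, 764 bases; Apoa2, 865 bases; Apoa1, 988 bases), and that of Apob, at 13909 bases, is much longer. Therefore, the differences in level between the crosses are given both as deposited and after a correction for transcript length.

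Transcription of apolipoprotein genes in hepatocytes is known to depend on liver-enriched factors that bind near the start site. RefSeq (GRCm38.p6) promoter windows of 300 bases were matched by symbol for 7 of the 9 genes, namely Apoa1, Apoa2, Apom, Apoa4, Apoa5, Apob and Apoh. They were searched on both strands for TATAAA (the TATA box), TGTTTAC and TGTTTGC (core letters bound by forkhead factors such as FOXA2) and AGGTCA (a nuclear receptor site), none of which overlapped another where found. These motifs were chosen after promoters had been looked at. One of the forkhead cores was found in 5 of the 7 windows, against 8.48% of all 32851 promoter windows. TATAAA was in 3 of the 7, against 13.6% of all windows. AGGTCA was found only in Apoh, at base -215 on the minus strand and outside the stretch shown, against 16.3% of all windows. The bases from 130 before to 20 after the start site are printed here for the genes with a forkhead core and for Apoa4, the gene that differed most between the crosses, with the motif letters in capitals. All 6 lie on the plus strand and are the B6 reference sequence, to which the reads of both alleles were aligned after masking.
Apoa1, chr9:46228500-46228649: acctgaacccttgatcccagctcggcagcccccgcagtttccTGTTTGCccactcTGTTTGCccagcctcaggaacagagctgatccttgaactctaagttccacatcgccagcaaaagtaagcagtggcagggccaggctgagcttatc
Apoa2, chr1:171224924-171225073: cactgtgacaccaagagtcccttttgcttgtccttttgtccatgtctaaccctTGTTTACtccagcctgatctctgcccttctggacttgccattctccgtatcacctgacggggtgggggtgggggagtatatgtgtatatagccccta
Apoa5, chr9:46268478-46268627: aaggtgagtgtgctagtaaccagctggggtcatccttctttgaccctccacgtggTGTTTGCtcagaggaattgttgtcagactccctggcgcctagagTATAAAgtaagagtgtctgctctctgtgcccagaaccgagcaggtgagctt
Apob, chr12:7977547-7977696: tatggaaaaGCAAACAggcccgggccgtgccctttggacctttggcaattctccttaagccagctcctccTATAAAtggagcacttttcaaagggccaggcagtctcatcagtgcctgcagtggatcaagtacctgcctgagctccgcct
Apoh, chr11:108395167-108395316: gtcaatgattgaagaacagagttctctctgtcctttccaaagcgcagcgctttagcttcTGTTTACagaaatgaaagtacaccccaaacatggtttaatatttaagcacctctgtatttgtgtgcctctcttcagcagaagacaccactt
Apoa4, chr9:46240714-46240863: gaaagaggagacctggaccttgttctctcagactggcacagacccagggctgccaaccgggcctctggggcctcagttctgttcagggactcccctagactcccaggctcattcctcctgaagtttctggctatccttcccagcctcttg
In Apoa1 the core TGTTTGC occurred at bases -88 and -75. TGTTTAC began at base -77 in Apoa2 and at -71 in Apoh. The window of Apoa2 lies inside the span of the gene (chr1:171221564-171226379), so its start site is not the one used below for distances. TGTTTGC began at base -75 in Apoa5, and in Apob it lay on the minus strand at base -121, where it reads GCAAACA. Apoa5 carried TATAAA at base -31, while Apob had it at base -60. Apoa2 had TATAAA at base -212, also outside it. None of the searched letters was found in the windows of Apoa4 and Apom. Such matches describe letters only and do not show that a factor was bound.

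The mRNA levels of the 9 genes differed widely, but all were high in liver. Apoa2 had the highest mean FPKM of the 8797 listed genes, and Apoa1 and Apoc3 ranked 7 and 8. The hepatocyte markers Alb and Trf were not listed, and Mup9 and Cyp2e1 were ranked with 0 FPKM in both MB mice. The ranks therefore hold only among the listed values. Apoh ranked 24, Apoa5 136, Apob 187, Apom 230, Apof 418 and Apoa4 534. Summed over the 9 genes, the level was 43150.4 and 34245 FPKM in the MB mice and 27028 and 33734 FPKM in the BM mice. This was 6.42%, 6.35%, 5.11% and 5.89% of the FPKM of all listed genes in each mouse. Apoa2 alone made up between 49.6% and 53.0% of the sum of the 9 genes.

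**Figure D1:**
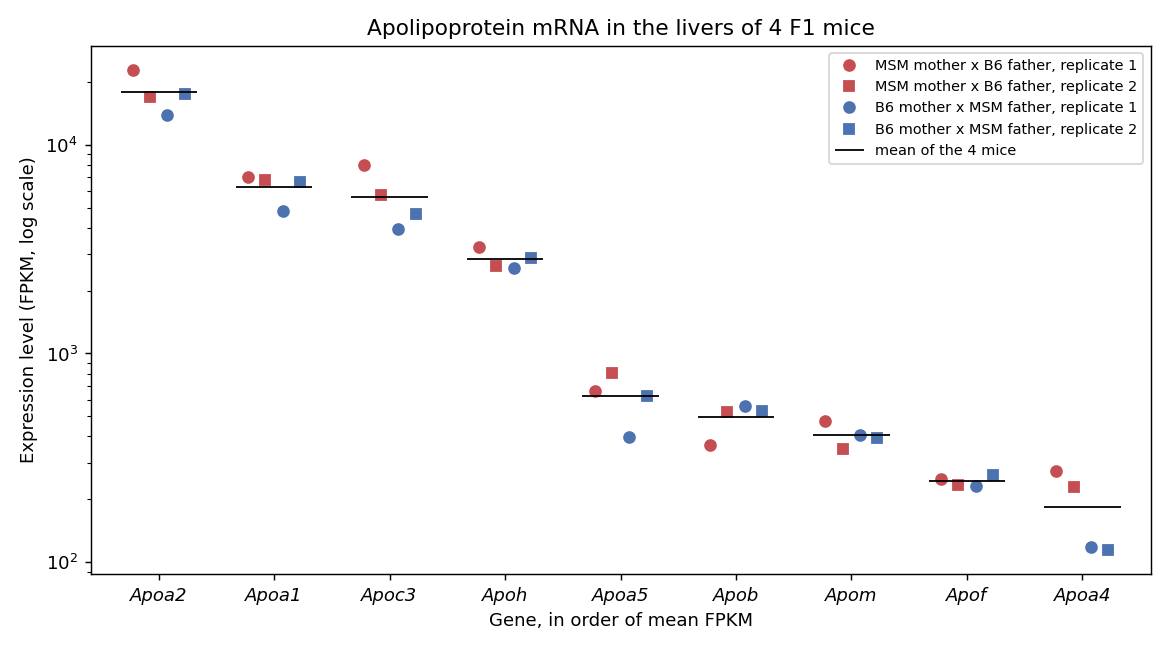
Expression level in FPKM (log scale) of 9 apolipoprotein genes in the liver of each of 4 F1 mice, in order of the mean; colors mark the cross, symbols the replicate, and lines the mean of the 4 mice. Among the genes plotted Apoa2 is the highest in every mouse, and for Apoa4 the MB mice (229 and 273 FPKM) lie above the BM mice (114 and 118 FPKM).

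Among the HDL proteins, Apoa2 was at 22852 and 16982 FPKM in MB replicates 1 and 2 and at 13954 and 17581 FPKM in BM replicates 1 and 2. Its mean was 17842 ± 3698 FPKM (SD, n = 4), and the crosses overlapped. Apoa1, the main structural protein of HDL and the activator of the cholesterol-esterifying enzyme LCAT, was at 6988 and 6751 FPKM in MB mice and at 4844 and 6669.7 FPKM in BM mice. In each mouse, Apoa2 was 2.52 to 3.27 times as abundant as Apoa1. Apom, the carrier of sphingosine-1-phosphate on HDL, was at 477 and 348 FPKM in MB mice and at 408 and 395 FPKM in BM mice. Apof, known as lipid transfer inhibitor protein, showed the least variation of the 9 genes, with a ratio of highest to lowest of 1.13, at 251, 234, 232 and 262 FPKM in the same order (245 ± 14.6, SD, n = 4). The levels of Apom and Apof overlapped between the crosses.

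The genes of triglyceride-rich particles covered a wide range. Apoc3 encodes an inhibitor of lipoprotein lipase and of remnant uptake, and was at 8046 and 5739.6 FPKM in MB mice and 3956 and 4676 FPKM in BM mice. The activator of lipolysis Apoa5 was at 661 and 805 FPKM in MB mice and 398 and 627 FPKM in BM mice. Apoa4, which in mice is expressed in both intestine and liver, was at 273 and 229 FPKM in MB mice and at 118 and 114 FPKM in BM mice. In all 3 genes both MB mice were above both BM mice. Of 6 enterocyte markers, Fabp2 and Vil1 were listed and summed to 62.0 and 46.6 FPKM in MB mice and 39.0 and 43.6 FPKM in BM mice. Most of this was Fabp2, at 59.9 and 40.9 FPKM in MB mice and 33.3 and 38.1 FPKM in BM mice, whereas Vil1 was at 2.08 and 5.71 FPKM and at 5.72 and 5.55 FPKM. The part of such cells in the level of Apoa4 was not tested.

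Apob was at 366 and 526 FPKM in MB mice and at 560.5 and 531 FPKM in BM mice, and the lowest value was that of MB replicate 1. Apoh, the plasma glycoprotein that binds anionic phospholipids, was at 3236 and 2630.4 FPKM in MB mice and at 2557 and 2879 FPKM in BM mice. Neighboring genes in the order of levels were not always separated. Apoa2 exceeded Apoa1, Apoc3 exceeded Apoh, Apoh exceeded Apoa5 and Apom exceeded Apof in all 4 mice. By contrast, the order of Apoa1 and Apoc3, of Apoa5 and Apob, of Apob and Apom, and of Apof and Apoa4 held in 3 of the 4 mice.

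The reciprocal crosses were compared to ask whether the level of these genes depended on which strain was the mother. None of the 9 genes passed the threshold in limma on log2(FPKM + 1) with Benjamini-Hochberg adjustment over all 8797 genes, against 0.0455% of all genes (4 genes, each listed at 0 FPKM in both mice of a cross). At an unadjusted p under 0.05 there were 2 of the 9, Apoa4 and Apoc3, against 8.87% of all genes. With 2 mice against 2, an exact permutation test cannot give a p below 0.333. The median difference of the 9 genes was 0.27 on the log2 scale, and that of all genes was 0.02. After the correction for transcript length, these medians were 0.09 and 0.00. In whole liver, fewer hepatocytes and less RNA per hepatocyte cannot be told apart.

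Apoa4 showed the largest difference of the 9. Its level was 2.15-fold higher in MB mice (log2 difference 1.10, SE 0.16, limma adjusted p = 0.264), or 1.02 on the log2 scale after the correction for transcript length (adjusted p = 0.129). For Apoc3 the fold was 1.58 (0.66, SE 0.25, limma adjusted p = 0.552), and the correction reduced the log2 difference to 0.41. Apoa5 had a log2 difference of 0.55 (SE 0.26, limma adjusted p = 0.586), which was 0.52 after the correction. The log2 difference of Apoa1 was 0.27 (SE 0.24), and 0.09 after the correction. These 4 genes lie together within 43.3 kb of chromosome 9 (chr9:46228630-46271921), in the order Apoa1, Apoc3, Apoa4 and Apoa5, with Apoc3 on the minus strand. In each of them both MB mice were above both BM mice, as in 23.0% of all genes. When each mouse was left out, the log2 difference ranged from 0.98 to 1.23 in Apoa4, from 0.42 (without MB replicate 1) to 0.90 in Apoc3, from 0.22 (without BM replicate 1) to 0.87 in Apoa5 and from 0.04 (without BM replicate 1) to 0.50 in Apoa1.

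Outside this cluster, Apoa2 differed by 0.33 on the log2 scale (SE 0.27), and by 0.13 after the correction. Its difference ranged from 0.12 without MB replicate 1 to 0.54 without MB replicate 2. Apob was the only member that was lower in both MB mice than in both BM mice, as in 19.4% of all genes. Its log2 difference was -0.31 (SE 0.22), and -0.16 after the correction. Without MB replicate 1 it was -0.05, and without MB replicate 2 it was -0.57. The correction turned the sign of Apom from 0.02 to -0.20 and that of Apoh from 0.10 to -0.05, and for Apof the values were -0.03 and -0.06. Kupffer cell markers, of which 6 of 8 were listed, summed to 206 and 175 FPKM in MB mice and to 252 and 232 FPKM in BM mice, and their part in the differences was not tested.

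**Figure D2:**
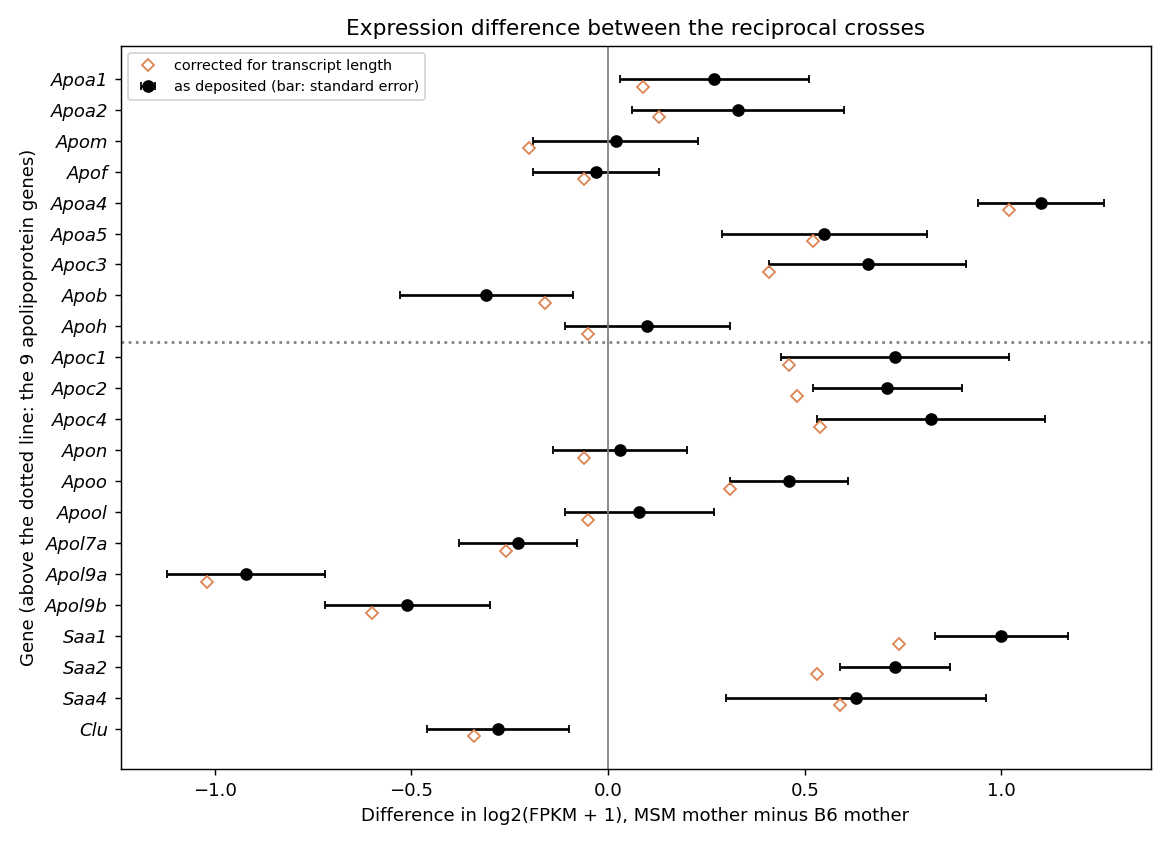
Difference between the crosses in log2(FPKM + 1), MSM mother minus B6 mother, for the 9 apolipoprotein genes (above the dotted line) and 13 other genes of apolipoproteins and related families. Filled circles with bars show the values as deposited with their standard error, and open diamonds the values after correction for transcript length; Apoa4 lies at 1.10 and 1.02, whereas Apoa1 moves from 0.27 to 0.09.

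Other apolipoprotein and related genes (13 listed of 17) were examined beside the members. None passed the threshold for expression in limma, and 7 were under an unadjusted p of 0.05, against 8.87% of all genes. Their median log2 difference was 0.46, or 0.31 after the correction. 7 were higher and 4 were lower in both MB mice, as in 23.0% and 19.4% of all genes. Apoc1, an inhibitor of lipid transfer and of remnant uptake, ranked 3 among the listed genes. It was at 13745 and 10078 FPKM in MB mice and at 5872 and 8526 FPKM in BM mice. Its log2 difference was 0.73 (SE 0.29, limma adjusted p = 0.557), or 0.46 after the correction. Its neighbors Apoc4 and Apoc2, the cofactor of lipoprotein lipase, differed by 0.82 (SE 0.29) and 0.71 (SE 0.19) on the log2 scale, or by 0.54 and 0.48 after the correction. These 3 genes lie within 21.1 kb on chromosome 7 (chr7:19671579-19692659). Apoc2 and Apoc4 overlap the read-through gene Gm44805 on the same strand, so their levels are uncertain. Clu, encoding the chaperone clusterin (apoJ), had a log2 difference of -0.28 (SE 0.18; -0.34 after the correction), and that of Apon was 0.03 (SE 0.17; -0.06 after the correction).

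Genes that act with the apolipoproteins were also described. None of 11 listed genes of particle assembly and secretion was called between the crosses, and their median log2 difference was 0.07, or 0.01 after the correction. Mttp, which loads lipid onto apoB, was at 111 and 95.6 FPKM in MB mice and at 110.4 and 102 FPKM in BM mice. Likewise, none was called among 11 genes of plasma remodeling, 11 of receptors and cholesterol efflux or 12 transcriptional regulators. The median log2 differences of these lists were -0.00, -0.17 and -0.12, or 0.03, -0.15 and -0.10 after the correction. An unadjusted p under 0.05 was found for 3, 2 and 2 of their genes, against 8.87% of all genes. It was found for 0 of the assembly genes. The regulators with an unadjusted limma p under 0.05 were Nr1h4 (log2 difference 0.41, SE 0.15) and Srebf1 (-1.08, SE 0.24). After the correction their differences were 0.37 and -1.03. Hnf4a, a main activator of apolipoprotein genes, was at 144 and 203 FPKM in MB mice and at 166 and 173 FPKM in BM mice. Creb3l3, an activator of Apoa4 and Apoa5, was at 232 and 216 FPKM in MB mice and at 169 and 195 FPKM in BM mice (log2 difference 0.30, SE 0.16, limma adjusted p = 0.607; 0.27 after the correction). Angptl4, an inhibitor of lipoprotein lipase, was at 127 and 139 FPKM in MB mice and at 46.9 and 90.7 FPKM in BM mice (log2 difference 1.01, SE 0.31, limma adjusted p = 0.472; 0.96 after the correction).

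The B6-allele frequency asks which strain's copy of a gene was used more in a shared cell environment. Under the thresholds of the methods (a mean frequency of at least 0.8 or at most 0.2), none of the 9 genes was allele-biased, compared with 3.19% of the 3632 genes with a frequency. Against equal use of both alleles, 3 of the 9 passed limma on the log2 odds with adjustment over all 3632 genes, while 36.2% of all genes did. Apof was called toward B6, as were 22.6% of all genes. Apoc3 and Apoh were called toward MSM, as were 13.6% of all genes. The share of the 9 genes called was close to the share of all genes. The median frequency of all 3632 genes was 0.510. The assignment of reads to alleles was not checked against genomic DNA here, and its part in departures from 0.5 was not tested. All 3 calls were lost when any 1 of the 4 mice was left out, with little change in the estimates. In these fits the single mouse left in a cross is assumed to vary like those of the other cross.

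**Figure D3:**
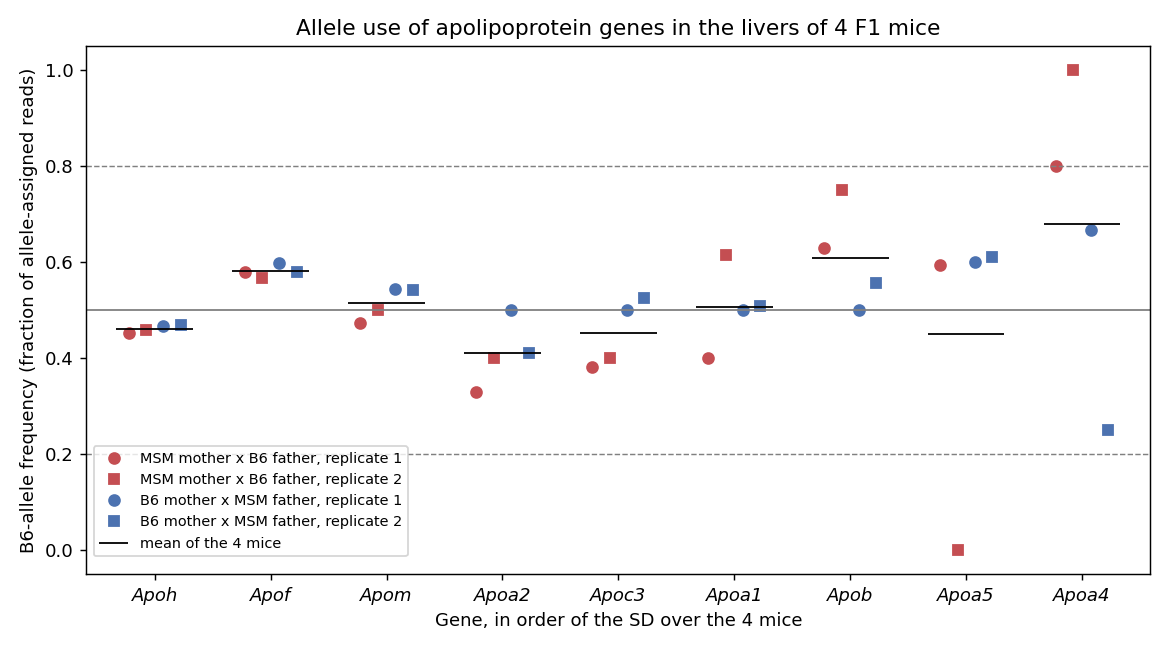
B6-allele frequency of 9 apolipoprotein genes in each of 4 F1 mice, in order of the SD over the mice; colors mark the cross, symbols the replicate and short lines the mean, the solid line marks equal use of both alleles and dashed lines the thresholds of 0.8 and 0.2. Apoh, Apof and Apom lie close together, whereas Apoa5 (0 to 0.611) and Apoa4 (0.250 to 1.00) are spread over most of the range.

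Apof had B6-allele frequencies of 0.580 and 0.567 in MB mice and of 0.599 and 0.580 in BM mice. All mice were above equal use, with a mean of 0.581 ± 0.0133 (SD, n = 4) and log2 odds of 0.47 (SE 0.05, limma adjusted p = 0.0112). When each mouse was left out, the log2 odds were 0.44 to 0.50 and the adjusted p was 0.0578 to 0.0778. Apoh had the smallest SD over the mice, at 0.453 and 0.458 in MB mice and at 0.466 and 0.468 in BM mice. Its mean was 0.461 ± 0.00661 (SD, n = 4) and its log2 odds were -0.22 (limma adjusted p = 0.0318, SE 0.04), and leaving out each mouse gave an adjusted p of 0.108 to 0.146. Apoc3 was at 0.381 and 0.400 in MB mice and at 0.5 and 0.526 in BM mice. The MB mice were below equal use, and the BM mice were at or above it. How many allele-assigned reads lie behind these values is not given, and the SE covers only the spread between mice. The log2 odds were -0.28 (SE 0.05, limma adjusted p = 0.0353), and the adjusted p was 0.0992 to 0.149 when each mouse was left out.

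For the other HDL proteins and Apob, no imbalance was called. Apoa2 was at 0.329 and 0.400 in MB mice and at 0.5 and 0.410 in BM mice, and no mouse was above equal use (log2 odds -0.53, SE 0.14, limma adjusted p = 0.0641). Apob was at 0.629 and 0.750 in MB mice and at 0.5 and 0.556 in BM mice, and no mouse was below equal use (log2 odds 0.67, SE 0.18, limma adjusted p = 0.0663). Apom was at 0.474 and 0.5 in MB mice and at 0.544 and 0.541 in BM mice, with a mean of 0.515 ± 0.0339 (SD, n = 4). Apoa1 was at 0.400 and 0.615 in MB mice and at 0.5 and 0.508 in BM mice, with a mean of 0.506 ± 0.0880 (SD, n = 4).

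The remaining genes of the chromosome 9 cluster had the widest spread. Apoa4 was at 0.8 and 1.00 in MB mice and at 0.667 and 0.250 in BM mice. Apoa5 was at 0.593, 0.600 and 0.611 in 3 mice and at 0 in MB replicate 2. No imbalance was called for either gene (limma adjusted p = 0.216 for Apoa4 and 0.530 for Apoa5). For Apoa5 the direction depended on that mouse, since the log2 odds were -1.21 with it and 0.58 without it. In the 266 genes with a frequency and a mean level of at least 200 FPKM, the median SD of the frequency over the 4 mice was 0.0168 and the upper quartile was 0.102. Apob (0.108), Apoa5 (0.301) and Apoa4 (0.317) had an SD above that quartile. The number of allele-assigned reads behind these frequencies is not given.

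Whether the allele in use depended on the mother was tested with the cross term of the same model. None of the 9 genes passed the threshold in limma, against 0.0826% of the 3632 genes, and 2 of the 9 had an unadjusted p under 0.05, against 5.23%. These were Apoc3 (log2 odds difference -0.72, SE 0.11, limma adjusted p = 0.708) and Apom (-0.32, SE 0.10, limma adjusted p = 0.873). The frequency was lower in both MB mice than in both BM mice in 5 of the 9 genes (Apoa2, Apom, Apoa5, Apoc3 and Apoh), as in 15.9% of all genes. It was higher in 2, Apoa4 and Apob, as in 18.4% of all genes. Within the chromosome 9 cluster the sign of the log2 odds difference was not shared, since it was 4.61 (SE 2.06) for Apoa4, -3.66 (SE 2.78) for Apoa5, -0.72 for Apoc3 and 0.02 (SE 0.50) for Apoa1. When each mouse was left out, the difference ranged from 2.29 to 6.92 in Apoa4 and from -7.25 to -0.08 in Apoa5. The value of -0.08 was that without MB replicate 2, and that of -7.25 rests on this mouse as the only MB mouse, with its frequency of 0 set to the limit of 0.01.

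Apof lies at chr10:128268699-128271250 on the plus strand, and 18 other listed genes start within 250 kb of it, all with a frequency. Of these, 2 were called toward B6 and 5 toward MSM (22.6% and 13.6% of all genes), and the mean frequencies ran from 0.385 to 0.569. The nearest on the lower side was Apon, which encodes a related plasma apolipoprotein and starts 14.6 kb from Apof. Apon was used in the opposite direction, at 0.386 and 0.362 in MB mice and at 0.401 and 0.391 in BM mice (log2 odds -0.68, SE 0.05, limma adjusted p = 0.00669). In all 4 mice Apof was above Apon, by 0.194, 0.205, 0.198 and 0.189, whereas the levels of both were similar (245 and 279 FPKM on average). Farther on that side, Spryd4 had a mean frequency of 0.434 and Gls2 of 0.569. On the other side, Stat2 had a mean of 0.439, Pan2 of 0.557 and Cnpy2 of 0.514. The Stat2 gene overlaps the last 753 bases of Apof on the same strand, so reads there could be counted for either gene. Stat2 was at 9.66 FPKM on average.

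Apom, at chr17:35128997-35131801 on the minus strand, lies in the major histocompatibility complex. Within 250 kb, 22 other listed genes start, and 17 of them had a frequency. Their mean frequencies ran from 0.287 (H2-Q2) to 0.812 (H2-Q4), and those outside the H2 genes from 0.405 to 0.577. The 3 called toward B6 were H2-D1, H2-Q1 and H2-Q4, and 1 other gene was called toward MSM. Of all genes, 36.2% were called in either direction. The nearest on either side, Bag6 (3.35 kb; 0.489 ± 0.0129, SD, n = 4) and D17H6S53E (5.40 kb; 0.577 ± 0.0393, SD, n = 4), were not called. For Apoa2 (chr1:171221564-171226379), none of the 20 listed genes within 250 kb had a frequency, and around Apob (chr12:7977629-8016839) and Apoh (chr11:108395297-108414396) no listed gene with a frequency was found within this distance.

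**Figure D4:**
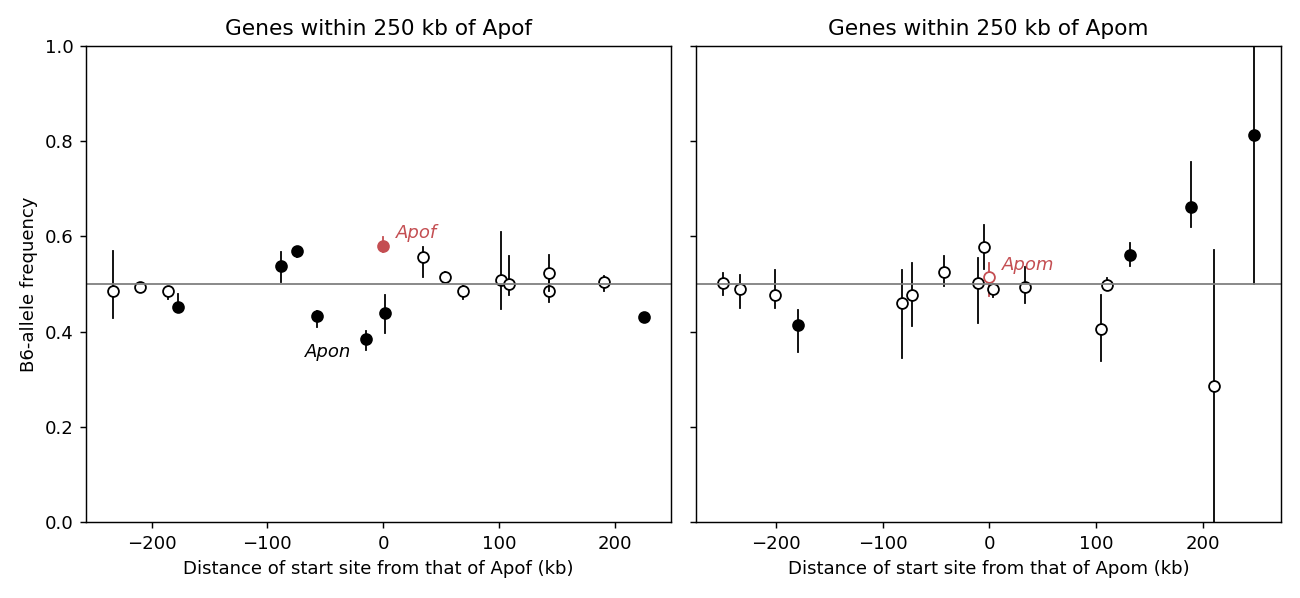
B6-allele frequency of genes whose start sites lie within 250 kb of that of Apof (left, 18 genes) and Apom (right, 17 genes), by distance in kb. Circles show the mean of the crosses, vertical lines the range over the 4 mice, filled circles the genes called for imbalance by limma and the grey line equal use; Apof (0.581) and its neighbor Apon (0.385) lie on opposite sides of it.

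Among the other lists, imbalance was called in genes on both sides of equal use, as in 22.6% (toward B6) and 13.6% (toward MSM) of all genes. The calls of the members were lost when a mouse was left out, and such fits are not given for the list genes. Of the 2 other apolipoprotein genes with a frequency, Apon was called and Apoc1 was not. The frequencies of Apoc1 were 0.429 and 0 in MB mice and 0.231 and 0.5 in BM mice. In particle assembly and secretion, P4hb, a subunit of the complex that loads lipid onto apoB, had a mean of 0.547 ± 0.00712 (SD, n = 4) and was called toward B6. A1cf, a cofactor of Apob mRNA editing, had a mean of 0.439 ± 0.00906 (SD, n = 4) and was called toward MSM. All 3 calls in plasma remodeling, among 6 genes with a frequency, were toward MSM. They were Lcat (0.432 ± 0.00405), the phospholipid transfer protein gene Pltp (0.354 ± 0.0160) and the endothelial lipase gene Lipg (0.348 ± 0.0608), each with its SD over 4 mice. Among the receptors and efflux genes, Lrp1 (0.643 ± 0.0136), Scarb1, the HDL receptor gene (0.560 ± 0.0219), and Abcg5 (0.555 ± 0.0173) were called toward B6. Abcg8, whose product pairs with that of Abcg5 as a sterol exporter, was called toward MSM (0.458 ± 0.0108, SD, n = 4). Of the regulators, Hnf4a was called toward B6 (0.542 ± 0.00917, SD, n = 4).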

How the data were processed

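Liver poly(A) RNA of 4 mice was sequenced, and the authors deposited an FPKM value and a fraction, the B6-allele frequency, per gene and mouse. To make them, the authors removed adapters (Trim Galore!), mapped the reads to a copy of mm10 with strain SNPs masked (Tophat2, 1 alignment kept per read), sorted them by allele (SNPsplit) and counted them (Cuffdiff). Versions are not given in the sources used here. Placing a read at a single alignment can shift values among similar genes. Depth per mouse is not given. The spread between mice was the only measure of error used, and it does not replace counts of reads.

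Groups were taken from the labels. The tool limma 3.58.1 (R 4.3.3), with a trend of variance on level, tested log2(FPKM + 1) where the mean FPKM reached 1. A difference on this scale understates changes of low genes. Frequencies were limited to 0.01 to 0.99 and tested as log2 odds, with the intercept as the mean of the crosses. Every p-value is two-sided and was adjusted over all genes tested (Benjamini-Hochberg, threshold 0.05), and the code was tested on simulated data. No replicate block was used. Transcript length was that of the longest RefSeq transcript (8757 of 8797 genes), and the correction subtracted a smoothed curve (span 0.3) from each mouse. RefSeq GRCm38.p6 gave positions for 8323 genes by symbol and 436 by synonym, and 38 had no match. Summaries used Python 3.11.15, pandas 2.3.3 and numpy 2.4.6, and matplotlib 3.10.9 drew the plots.

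Genes named beside the members are, per list, those that passed a test and up to 5 of highest mean FPKM, and the 3 nearest genes with a frequency on each side of a member, and 1 list gene that passed is left out of the text. The members and lists were chosen with earlier results of these data known. Other pseudocounts, filters, scales, limits and thresholds, a block for replicate number and leaving out each mouse were tried.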

Additional observations from a re-analysis of the deposited data

How the results depend on the processing

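Of the 9 genes, none passed the threshold for expression between the crosses under every alternative but the replicate block, which called 1 gene, Apoa4 (limma adjusted p = 0.00311), and 285 instead of 4 of all genes. For imbalance, 3 of the 9 genes were called. The replicate block left 1 (Apof) and 775 instead of 1316 of all genes, and a filter at a mean FPKM of 10 left 850 of all genes. Leaving out each mouse, which leaves a single mouse in a cross that is assumed to vary like the other cross, gave 0 to 1 of the 9 genes and 181 to 514 of all genes. The gene called then was Apoa5, in opposite directions, with log2 odds of -3.01 without MB replicate 1 and of 0.58 without MB replicate 2. Without MB replicate 1 its MB value is a single mouse at 0. A linear frequency added Apob (adjusted p = 0.0465), and a shift to median log2 odds of 0 added Apoa2 (adjusted p = 0.0473). For the frequency between the crosses, leaving out each mouse gave 0 to 1 of the 9 genes, against 0 in the full data, and 0 to 6 instead of 3 of all genes. Wider limits on the frequency and a filter at a mean FPKM of 10 left 1 gene each, and the block changed no call of the 9. No setting brought any of the 9 genes past the thresholds of 0.7 and 0.3 (241 of all genes instead of 116), 0.9 and 0.1 (60), or 0.8 and 0.2 in every mouse (78). Some signs changed. The expression difference of Apom became -0.00 after a shift to the same median and -0.20 after the length correction, which was chosen after seeing the data, and that of Apoh became -0.05 after this correction. When each mouse was left out, the difference ranged from -0.21 to 0.25 in Apom (-0.00 and -0.21 in the reversed cases), from -0.04 to 0.25 in Apoh and from -0.12 to 0.06 in Apof (0.02 and 0.06 reversed). The log2 odds of Apoa1 were -0.02 after the shift and ranged from -0.28 to 0.35 without each mouse, those of Apoa5 from -3.01 to 0.58, and the difference between the crosses in Apoa1 from -0.61 to 0.65, with -0.00 without BM replicate 1. The cause of these changes was not tested. Replicate numbers are not stated to mark a litter or day. Over all genes, the difference between replicates 1 and 2 correlated between the crosses with r of 0.004 for expression and 0.146 for log2 odds, so the samples were treated as sharing only a number. With 2 mice per cross and no read counts per gene or allele, small differences cannot be resolved.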

Other observations

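Further genes related to apolipoproteins differed in level between the crosses without overlap. Over all genes, 23.0% were higher and 19.4% lower in both MB mice than in both BM mice. They were chosen after their values were seen, and none was called by limma. Saa1, encoding the acute-phase apolipoprotein serum amyloid A, was at 77.5 and 57.8 FPKM in MB mice and at 32.7 and 33.4 FPKM in BM mice. Its log2 difference was 1.00 (SE 0.17, limma adjusted p = 0.324), or 0.74 after the correction for transcript length. Saa2, its neighbor on chromosome 7, was at 47.5 FPKM in both MB mice and at 31.2 and 25.5 FPKM in BM mice, and the constitutive Saa4 was at 76.0 and 154 FPKM in MB mice and at 65.6 and 73.3 FPKM in BM mice. Saa1 and Saa2 are similar in sequence, and their reads cannot be separated with certainty. Apol9a, of the intracellular apolipoprotein L family, was in the other direction, at 19.1 and 12.7 FPKM in MB mice and at 31.1 and 29.6 FPKM in BM mice (log2 difference -0.92, SE 0.20, limma adjusted p = 0.354; -1.02 after the correction). Apol9b, a close copy with the same limit, had a log2 difference of -0.51 (SE 0.21), or -0.60 after the correction. Srebf1, the regulator of fatty acid synthesis, was at 33.4 and 52.5 FPKM in MB mice and at 80.0 and 100.3 FPKM in BM mice (log2 difference -1.08, SE 0.24, limma adjusted p = 0.365; -1.03 after the correction).

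Markers of other cells were also listed. The listed markers of sinusoidal endothelium (6 of 6) summed to 131 and 127 FPKM in MB mice and to 147 and 148 FPKM in BM mice, and those of stellate cells (3 of 6) to 128, 112, 90.6 and 109 FPKM in the same order. Spp1, the single listed cholangiocyte marker, was at 9.51 to 14.6 FPKM, and Fabp4, the single listed adipocyte marker, at 10.4 to 16.8 FPKM. Blood cell markers (3 of 6) summed to 133 and 45.2 FPKM in MB mice and to 159 and 51.4 FPKM in BM mice. Hba-a1 made up most of this sum, at 124 and 36.0 FPKM in MB mice and at 136 and 23.6 FPKM in BM mice. Hbb-bs was at 2.13 and 3.02 FPKM in MB mice and at 14.3 and 23.1 FPKM in BM mice (log2 difference -2.43, SE 0.24, limma adjusted p = 0.105; -2.68 after the correction), and its part in the differences of other genes was not tested.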
